A study of Homo sapiens with 4 samples.

Results

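The guidance genes described here encode the ephrins, the Eph receptors, the semaphorins, the plexins and the neuropilins. They were taken by gene symbol, with earlier results of these data known. The protein-coding rows of the deposited table whose names begin EPHA, EPHB, EFNA, EFNB, SEMA, PLXN or are NRP1 or NRP2 gave 53 of 58735 genes. There were 8 ephrins, 14 Eph receptors, 20 semaphorins, 9 plexins and 2 neuropilins. RNA was sequenced from cultured cells that the labels call human lung squamous cell carcinoma, in 2 libraries named for 0 Gy and 2 named for 30 Gy (gray, a measure of absorbed radiation). The series' design text names the SK-MES-1 line and a radiotherapy-resistant line derived from it, SK-MES-1-RR, within a study of KRT6A, RAB39B, autophagy and radiotherapy resistance. Which library belongs to which line is not stated in the sources used here, nor is how the 30 Gy were delivered or when RNA was taken, and 0 Gy and 30 Gy serve as group names. A difference between the groups may be a difference between 2 lines, a response to dose, or both, and these cannot be told apart. The labels do not say that replicates are separate cultures, so the p-values reflect the spread between these libraries alone, which may be technical.

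Ephs are receptor tyrosine kinases, and their ligands, the ephrins, are held on the surface of the neighbouring cell, by a lipid anchor in the A class and by a membrane-spanning segment in the B class. Signals run into both cells, and in epithelia they govern adhesion, repulsion and the sorting of cells into territories. Semaphorins are secreted or membrane-bound cues read by plexins, whose intracellular part switches off small GTPases of the R-Ras and Rap type. The secreted class 3 semaphorins mostly need a neuropilin as the binding partner of a class A plexin, and neuropilins also bind vascular endothelial growth factors. All of these families are best known from axon growth and vessel patterning, and many members are expressed in carcinomas.

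Levels are given as FPKM (fragments per kilobase, scaled to depth). Abundance is compared between genes by FPKM, so such comparisons rest on the gene lengths in the deposited table. Depth was 15920861 to 17261121 reads per library, recovered from the deposited values. Across the 13379 tested genes, Pearson's r was 0.984 and 0.981 between replicates at 0 and 30 Gy and 0.956 to 0.958 between doses. Of 10 markers fixed for squamous and basal epithelium, KRT5, KRT6A, KRT6B and DSG3 were listed at 0 in all 4 libraries and TP63 stood at 3.19 to 4.14 FPKM. That list summed to 122 to 133 FPKM at 0 Gy and 117 to 124 at 30 Gy, most of it SFN (97.7 to 110.4) with PKP1 next (14.8 to 18.3). Within it TP63 (means 4.04 and 3.26) and PKP1 (17.9 and 15.5) were lower at 30 Gy without overlap, and neither was called. SOX2 (0.173 and 0.512) and DSC3 (0.313 and 0.636) were higher without overlap and were not tested. The 6 simple-epithelium markers summed to 332 to 344 and 368 to 402 FPKM; of these KRT7 was called higher (means 95.8 and 211) and KRT19 lower (162 and 88.4), and CDH1 stayed under 0.1 FPKM. Fibroblast markers summed to 63.0 to 63.3 and 73.0 to 79.0 FPKM, most of it COL1A1, while DCN was listed at 0 and COL1A2 was at 0 in all but 1 library. Within that list LUM went from 0.0191 and 0.0978 to 0.895 and 1.32 FPKM and PDGFRB from means of 0.685 to 1.48 (limma adjusted p = 0.0535), and THY1, PDGFRA and COL3A1, all under 0.5 FPKM, were also higher at 30 Gy without overlap. The endothelial list, of which CDH5 was listed at 0, summed to 5.12 to 5.18 and 4.31 to 6.03 FPKM, most of it EGFL7. Its members ESAM, TEK and PECAM1 were under 0.5 FPKM and higher at 30 Gy without overlap, with VWF lower. The neuron and glia list summed to 9.34 to 9.48 and 10.4 FPKM, with MBP the highest, and its member SYT1 was called higher (means 1.44 and 3.07). Leukocyte markers summed to 0.750 to 1.03 FPKM over all libraries. Of these NKG7 was at 0 in both 0 Gy libraries and at 0.268 and 0.336 FPKM at 30 Gy. CD14, ITGAM and PTPRC were lower at 30 Gy without overlap. The part of these lists in the results below was not tested.

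Of the 53 guidance genes, 30 reached 1 FPKM or more in 2 or more libraries and were tested. SEMA7A, NRP2, EPHB6, SEMA3A, EPHB2 and NRP1 were higher at 30 Gy and SEMA3C was lower, while 23 tested members did not pass (limma on log2(FPKM + 1), adjusted p under 0.05 over all tested genes). In bulk RNA, fewer cells that express a gene and less of its RNA per cell cannot be told apart. Among all 13379 tested genes, 19.8% were called, 10.8% higher and 9.06% lower at 30 Gy. The 7 called members are 23.3% of the 30, close to that background. At an unadjusted p under 0.05 there were 16 of 30 members (11 higher, 5 lower), beside 37.7% of all tested genes. Voom, limma's count-based weighting applied to reads recovered from the FPKM values, called 16 of 30 (11 higher, 5 lower), beside 31.3% of all. Limma on protein-coding genes alone called 15 of 30 (11 higher, 4 lower), beside 34.6% of the 11125 genes then tested. The number of members called thus depends on the setting. The members' median log2 change was 0.05, beside -0.00068 over all tested genes. The 4 libraries split by dose without overlap for 20 of the 30 tested members, 12 of them higher at 30 Gy, and for 65.2% of all tested genes.

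**Figure D1:**
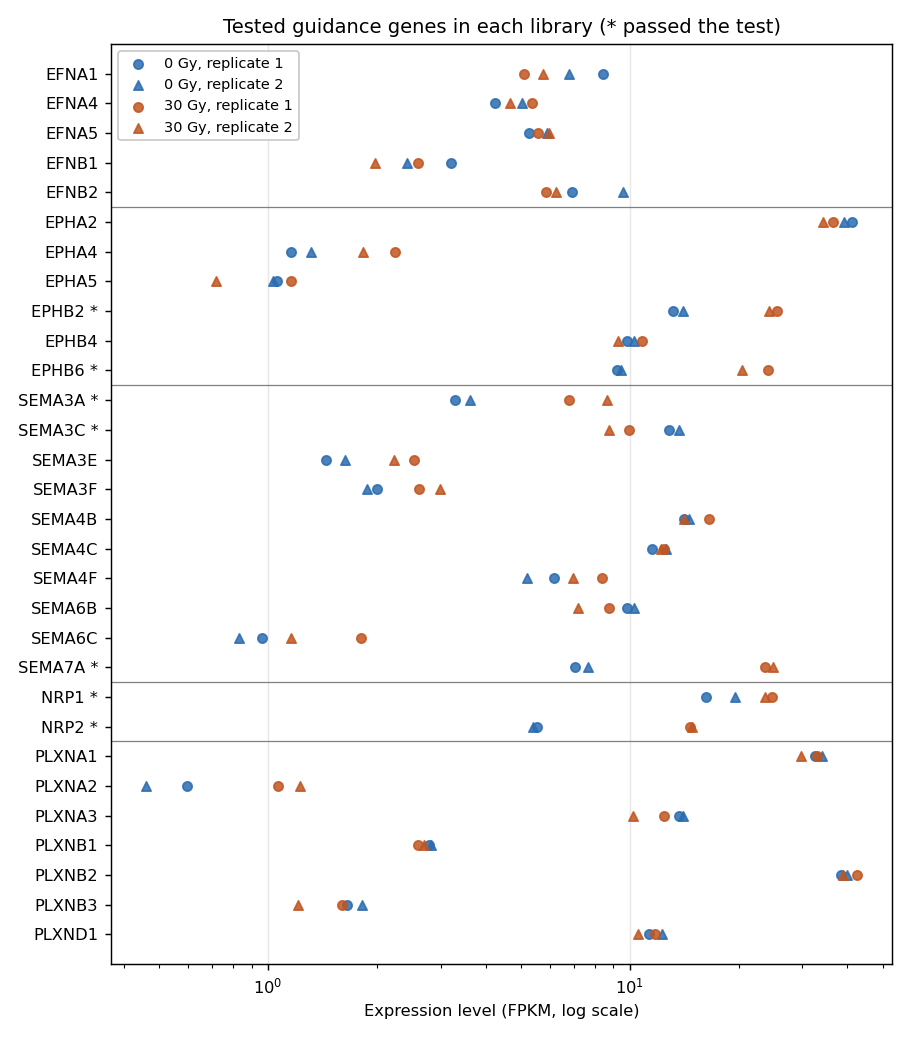
Level of each of the 30 tested guidance genes in the 4 libraries (horizontal axis, FPKM on a log scale; blue, 0 Gy; orange, 30 Gy; circles and triangles, replicates 1 and 2; lines separate the families; asterisks mark genes with an adjusted p under 0.05). For SEMA7A, NRP2, EPHB6, SEMA3A and EPHB2 the 30 Gy points lie well to the right of the 0 Gy points, while for PLXNB2, PLXNA1, SEMA4C and EPHB4 the colours overlap.

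The windows just before the start sites of the members with the largest rises, SEMA7A, NRP2 and EPHB6, and of SEMA3C, the member that fell, are shown so that their base composition can be compared. Each is the 250 bases before the RefSeq start (GRCh38.p14), read 5′ to 3′ on the gene's strand. Capitals mark matches on either strand to the motifs searched, which here were GGGCGG (the GC box bound by Sp1-type factors) and CCAAT (the CCAAT box).
SEMA7A, chr15:74433959-74434208, minus strand: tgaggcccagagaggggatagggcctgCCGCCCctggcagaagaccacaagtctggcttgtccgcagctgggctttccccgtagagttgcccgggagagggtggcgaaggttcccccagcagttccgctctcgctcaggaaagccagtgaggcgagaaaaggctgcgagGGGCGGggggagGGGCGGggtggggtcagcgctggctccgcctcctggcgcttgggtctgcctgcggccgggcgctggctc
NRP2, chr2:205682251-205682500, plus strand: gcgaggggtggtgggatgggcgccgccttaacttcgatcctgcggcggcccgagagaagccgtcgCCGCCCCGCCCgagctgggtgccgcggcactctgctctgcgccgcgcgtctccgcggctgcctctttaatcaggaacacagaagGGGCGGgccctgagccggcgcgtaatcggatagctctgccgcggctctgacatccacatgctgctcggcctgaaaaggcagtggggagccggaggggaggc
EPHB6, chr7:142862506-142862755, plus strand: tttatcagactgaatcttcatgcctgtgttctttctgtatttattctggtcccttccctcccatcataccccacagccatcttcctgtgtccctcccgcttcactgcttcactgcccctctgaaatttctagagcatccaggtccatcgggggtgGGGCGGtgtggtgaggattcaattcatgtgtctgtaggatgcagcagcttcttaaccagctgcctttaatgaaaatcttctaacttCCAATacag
SEMA3C, chr7:80922390-80922639, minus strand: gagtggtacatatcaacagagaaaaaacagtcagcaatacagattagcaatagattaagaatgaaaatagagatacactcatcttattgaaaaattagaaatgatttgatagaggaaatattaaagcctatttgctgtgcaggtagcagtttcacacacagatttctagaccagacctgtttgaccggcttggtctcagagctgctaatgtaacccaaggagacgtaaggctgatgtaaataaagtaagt
The SEMA7A and NRP2 windows are each 70.0% G or C and hold 3 GC boxes each, those of NRP2 including a pair that overlaps by 1 base; the NRP2 window ends 511 bases downstream of the gene start in the deposited table. The EPHB6 window is 48.0% G or C with 1 GC box and 1 CCAAT box, and ends 7695 bases downstream of the start given in that table, so another annotated start lies upstream of it. SEMA3C has the poorest window of the 47 members that matched RefSeq, at 36.4% G or C, with 2 CpG pairs and no match to any motif searched. NRP1 and SEMA3A have no entry in the table used.

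Across the 47 matched members, 37 windows (78.7%) held a GC box, beside 42.3% of 27305 RefSeq windows of the same length. Those windows were taken 1 per symbol and were not limited to protein-coding or tested genes. Among the 27 matched members that were tested, 24 held a GC box, and no share over all tested genes was computed. Some member windows end far downstream of the start in the deposited table, as for EPHB1 (197459 bases), PLXNC1 (113896), PLXNA4 (72218) and SEMA4B (40726). The median G or C content was 66.4% for members and 58.0% for all windows. CCAAT was found before 16 members (34.0%) and in 33.0% of all windows. The AP-1 motif TGANTCA, searched like the others on both strands, was found before 1 member and in 6.60% of all windows. For the TEAD motif GGAATG these values were 3 members and 11.9%, and for the antioxidant response element, TGACNNNGC, 4 members and 11.0%. The TATA box was searched as TATAAA and found before 1 member and in 11.1% of all windows. None of these last motifs was present before any of the 5 called members with an entry. At shares of 6.60% to 11.9% over all windows, 5 windows are too few to make this a trait of the called members. Matches are a description of these letters; binding was not measured.

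Among the ligands, SEMA7A had the largest change. It encodes a semaphorin held on the membrane by a lipid anchor, known to act through beta1 integrins and plexin C1. SEMA7A (ENSG00000138623, 15:74409289-74433958, hg38) stood at 7.08 and 7.65 FPKM in the 0 Gy libraries and at 23.6 and 24.8 FPKM in the 30 Gy libraries. Both 30 Gy libraries were far above both 0 Gy libraries, and the replicates of each dose lay close together. The ratio of mean FPKM was 3.29, and the log2 change was 1.59 ± 0.07 (SE, n = 2 per group; limma adjusted p = 0.00134). At 0 Gy the gene ranked below SEMA4B, SEMA3C, SEMA4C and SEMA6B in mean FPKM, and at 30 Gy it ranked first among the semaphorins. That first rank rests on gene length, 3800 bases for SEMA7A and 7006 for SEMA4B. In recovered reads at 30 Gy SEMA4B was ahead, with 1852 and 1570 against 1434 and 1501. The plexin receptor of SEMA7A, PLXNC1, stood at 0.375 to 0.450 FPKM (59 to 71 reads), below the level needed for testing, with overlapping groups.

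SEMA3A and SEMA3C, both secreted class 3 semaphorins, moved in opposite directions. SEMA3A, the founding collapse-inducing cue of the class, which binds NRP1, was at 3.29 and 3.62 FPKM at 0 Gy and at 6.78 and 8.63 FPKM at 30 Gy. The groups did not overlap, although the 30 Gy replicates were 1.31 FPKM (SD) around their mean of 7.71, against 0.233 around 3.45 at 0 Gy. The log2 change was 0.96 ± 0.13 (SE, n = 2 per group; limma adjusted p = 0.0117). SEMA3C, which binds both neuropilins and signals with PLXND1 in the developing outflow tract, was at 12.8 and 13.7 FPKM at 0 Gy and at 9.95 and 8.75 FPKM at 30 Gy. It fell by 0.46 ± 0.09 on the log2 scale (SE, n = 2 per group; limma adjusted p = 0.0258), the lowest change of any tested member. SEMA3C was 3.84 times as abundant as SEMA3A by mean FPKM at 0 Gy and 1.21 times at 30 Gy. The order at 30 Gy rests on gene length, 6268 bases for SEMA3C and 9371 for SEMA3A. In recovered reads SEMA3A was ahead there, with 1014 and 1287 against 996 and 873.

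The other class 3 semaphorins were scarce. SEMA3E, which binds PLXND1 without a neuropilin, was at 1.45 and 1.63 FPKM at 0 Gy and 2.53 and 2.23 FPKM at 30 Gy. Its groups did not overlap and the ratio of means was 1.55, but it did not pass (log2 change 0.41, adjusted p = 0.0701). SEMA3E did pass with voom (log2 change 0.63, adjusted p = 0.00519), with protein-coding genes alone (0.0166) and in limma without the trend (0.0491). SEMA3F, an NRP2 ligand, had means of 1.94 ± 0.0870 and 2.80 ± 0.255 FPKM (SD, n = 2 each; limma adjusted p = 0.0715, but 0.0306 with voom and 0.0219 with protein-coding genes alone). SEMA3B, SEMA3D and SEMA3G stayed under 1 FPKM in every library. SEMA3E, SEMA3A and SEMA3D are neighbours on chromosome 7, with gaps of 307 and 503 kb between them. Of this row SEMA3A passed and SEMA3E did not, and SEMA3D, at 0.707 and 0.654 FPKM by group mean, was not tested.

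Membrane-bound semaphorins of classes 4 and 6 had 5 tested genes and no call in the main limma test (2 at an unadjusted p under 0.05). Beside 19.8% and 37.7% of all tested genes, counts on 5 genes are no result about these classes. SEMA4F was called higher with voom, with a filter at FPKM 5, with protein-coding genes alone and with the replicate block, and SEMA6B lower with voom and with protein-coding genes alone. SEMA4B, the most abundant of class 4, was at 14.1 and 14.6 FPKM at 0 Gy and 16.6 and 14.1 FPKM at 30 Gy, with overlapping groups (log2 change 0.08, adjusted p = 0.562). SEMA4C, a PLXNB2 ligand, had group means of 12.03 and 12.29 FPKM. SEMA4F, at 5.68 ± 0.671 and 7.69 ± 1.01 FPKM (SD, n = 2 each), had groups that did not overlap (adjusted p = 0.0874). SEMA6C was at 0.959 and 0.830 FPKM at 0 Gy and 1.81 and 1.16 FPKM at 30 Gy, a ratio of 1.66 with a wide spread between the 30 Gy replicates (adjusted p = 0.203). SEMA6B had means of 10.1 and 7.98 FPKM (log2 change -0.30, adjusted p = 0.103). SEMA6D had 0 reads in each library, where 3 reads would be 0.0203 to 0.022 FPKM; this floor covers counting error only.

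No ephrin passed in the main limma test, where 1 of the 5 tested had an unadjusted p under 0.05. Beside 19.8% and 37.7% of all tested genes, counts on 5 genes are no result about the ephrins. EFNA1 was called lower with voom (adjusted p = 0.0332), with protein-coding genes alone (0.0178), with a filter at FPKM 5 (0.0364) and on rescaling to equal sums (0.0434), and EFNB2 with voom (0.0332) and with protein-coding genes alone (0.0495). EFNA1, a ligand of EPHA2, was at 8.42 and 6.79 FPKM at 0 Gy and at 5.11 and 5.74 FPKM at 30 Gy. EFNB2, a ligand of EPHB4 known for marking arterial endothelium, was at 6.90 and 9.56 FPKM at 0 Gy and at 5.88 and 6.24 FPKM at 30 Gy. For both genes the 30 Gy libraries were the lower pair without overlap, and the spread between 0 Gy replicates was large (SD 1.15 and 1.88 FPKM). Their log2 changes were -0.42 (adjusted p = 0.0697) and -0.37 (adjusted p = 0.143). Another gene's exons on the opposite strand cover 26.2% of the EFNB2 exon bases, and the sources used here do not say whether the counting used strand. EFNA5 and EFNA4 had overlapping groups with means of 5.57 and 5.77 FPKM and of 4.63 and 5.02 FPKM. EFNB1 had means of 2.81 and 2.28 FPKM, also overlapping. EFNA4, EFNA3 and EFNA1 lie in a row on chromosome 1 with gaps of 9.32 and 39.9 kb; EFNA3 stayed under 1 FPKM, and 44.7% of its exon bases and 15.0% of those of EFNA4 are shared with a gene annotated on the same strand. Summed over the 8 genes, ephrin FPKM was 29.2 and 31.0 at 0 Gy and 26.2 and 26.6 at 30 Gy.

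Among the Eph receptors, EPHB2 and EPHB6 rose, and no EphA receptor passed in the main limma test (2 of 3 tested at an unadjusted p under 0.05). Over all tested genes these shares were 19.8% and 37.7%. With 3 EphA genes tested, the counts cannot show a contrast with the EphB receptors. EPHA4 was called higher with voom (log2 change 0.72, adjusted p = 0.00667) and with protein-coding genes alone (0.0169). EPHB2, a kinase that binds B-class ephrins and guides cell positioning in intestinal crypts, was at 13.2 and 14.1 FPKM at 0 Gy and at 25.5 and 24.3 FPKM at 30 Gy. Its log2 change was 0.82 ± 0.07 (SE, n = 2 per group; limma adjusted p = 0.00424), with a ratio of means of 1.83. EPHB6, a receptor whose kinase domain lacks catalytic activity, was at 9.23 and 9.48 FPKM at 0 Gy and at 24.2 and 20.4 FPKM at 30 Gy. The 0 Gy libraries were nearly level and the 30 Gy libraries both above 20 FPKM. The ratio of means was 2.39 and the log2 change 1.17 ± 0.10 (SE, n = 2 per group; limma adjusted p = 0.00423). EPHB4, the third abundant EphB receptor, had overlapping groups with a mean of 10.1 FPKM in each (log2 change -0.0014, SE 0.09, adjusted p = 0.993).

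EPHA2, a receptor widely expressed in epithelial tumours, had the highest FPKM of the Eph receptors in each library. It was at 41.3 and 39.1 FPKM at 0 Gy and at 36.4 and 34.3 FPKM at 30 Gy, a small difference without overlap that did not pass (log2 change -0.18, SE 0.07, adjusted p = 0.119). EPHA4, which binds ephrins of both classes, was at 1.16 and 1.32 FPKM at 0 Gy and at 2.25 and 1.83 FPKM at 30 Gy (ratio of means 1.65, adjusted p = 0.0816). EPHA5 had overlapping groups near 1 FPKM. As a share of summed Eph receptor FPKM, EPHA2 went from 52.1% ± 1.83 at 0 Gy to 36.4% ± 0.888 at 30 Gy (SD, n = 2 each), EPHB2 from 17.7% ± 0.858 to 25.6% ± 0.874 and EPHB6 from 12.1% ± 0.274 to 22.9% ± 1.17. The 5 EphB receptors together summed to 32.5 and 34.2 FPKM at 0 Gy and to 60.8 and 54.4 FPKM at 30 Gy, while the 9 EphA receptors summed to 44.9 and 42.7 and to 41.3 and 38.3. By summed FPKM, EphA thus exceeded EphB in both 0 Gy libraries and EphB exceeded EphA in both 30 Gy libraries. This order rests on the gene lengths that FPKM divides by, 12516 bases for EPHB2 and 4159 for EPHA2. In recovered reads EPHB2 had 2875 and 2993 at 0 Gy and EPHA2 had 2989 and 2764, and EphB was already ahead of EphA there. These sums and shares are descriptions and were not tested.

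**Figure D2:**
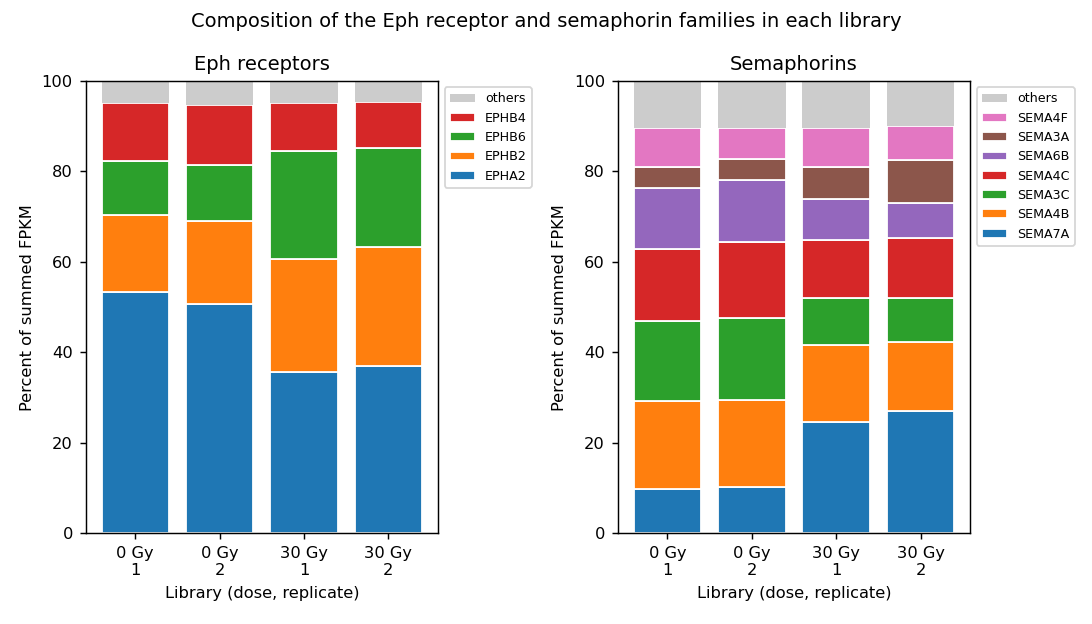
Share of summed FPKM taken by each gene (percent, stacked to 100) among the 14 Eph receptors and the 20 semaphorins in each of the 4 libraries; genes under 4% in both groups are pooled as others. EPHA2 takes the largest part of the Eph receptor bar in every library and a smaller part at 30 Gy (36.4% against 52.1%), and SEMA7A widens from 9.96% to 25.8% of the semaphorin bar.

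Both neuropilins, the co-receptors that bind class 3 semaphorins, rose. NRP2 was at 5.55 and 5.39 FPKM at 0 Gy and at 14.6 and 14.8 FPKM at 30 Gy. The replicates of each dose differed by far less than the doses did, and the ratio of means was 2.69 (log2 change 1.28 ± 0.07, SE, n = 2 per group; limma adjusted p = 0.00176). NRP1 was at 16.3 and 19.5 FPKM at 0 Gy and at 24.7 and 23.6 FPKM at 30 Gy, higher in both 30 Gy libraries with a ratio of means of 1.35 (log2 change 0.42 ± 0.10, SE, n = 2 per group; limma adjusted p = 0.0451). NRP1 remained the more abundant of the pair, and NRP2 went from 23.6% ± 2.69 to 37.9% ± 0.958 of their summed FPKM (SD, n = 2 each). Exons of genes on the opposite strand cover 4.87% of the NRP1 and 1.06% of the NRP2 exon bases.

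Plexins carry the semaphorin signal into the cell, and none of the 7 tested passed in the main limma test (2 at an unadjusted p under 0.05). Over all tested genes these shares were 19.8% and 37.7%. With so few plexins tested, the counts are no result about the family. PLXNA2 was called higher with voom (log2 change 1.12, adjusted p = 0.000497), with protein-coding genes alone (0.0117) and without the trend (0.0355), and PLXNA3 was called lower with voom (0.0173). PLXNB2, a receptor of class 4 semaphorins, was the most abundant at 38.4 and 39.9 FPKM at 0 Gy and 42.5 and 38.9 FPKM at 30 Gy. PLXNA1, a partner of the neuropilins, followed at 32.5 and 34.1 FPKM and at 32.9 and 29.7 FPKM. The groups of both genes overlapped, with log2 changes of 0.05 (SE 0.07, adjusted p = 0.628) and -0.09 (SE 0.07, adjusted p = 0.450). PLXNA3 had means of 13.9 and 11.3 FPKM (adjusted p = 0.121) and PLXND1, the receptor of SEMA3E, 11.8 and 11.1 FPKM with overlapping groups. PLXNA2, another class A plexin, was at 0.596 and 0.461 FPKM at 0 Gy and at 1.07 and 1.22 FPKM at 30 Gy. It had the highest ratio of means among members that did not pass, 2.17, at a level where the added 1 in log2(FPKM + 1) compresses the change (0.49, adjusted p = 0.0994). Summed over the 9 genes, plexin FPKM was 101 and 106 at 0 Gy and 105 and 95.0 at 30 Gy. PLXNB3, with means of 1.73 and 1.41 FPKM, shares 20.4% of its exon bases with SRPK3.

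**Figure D3:**
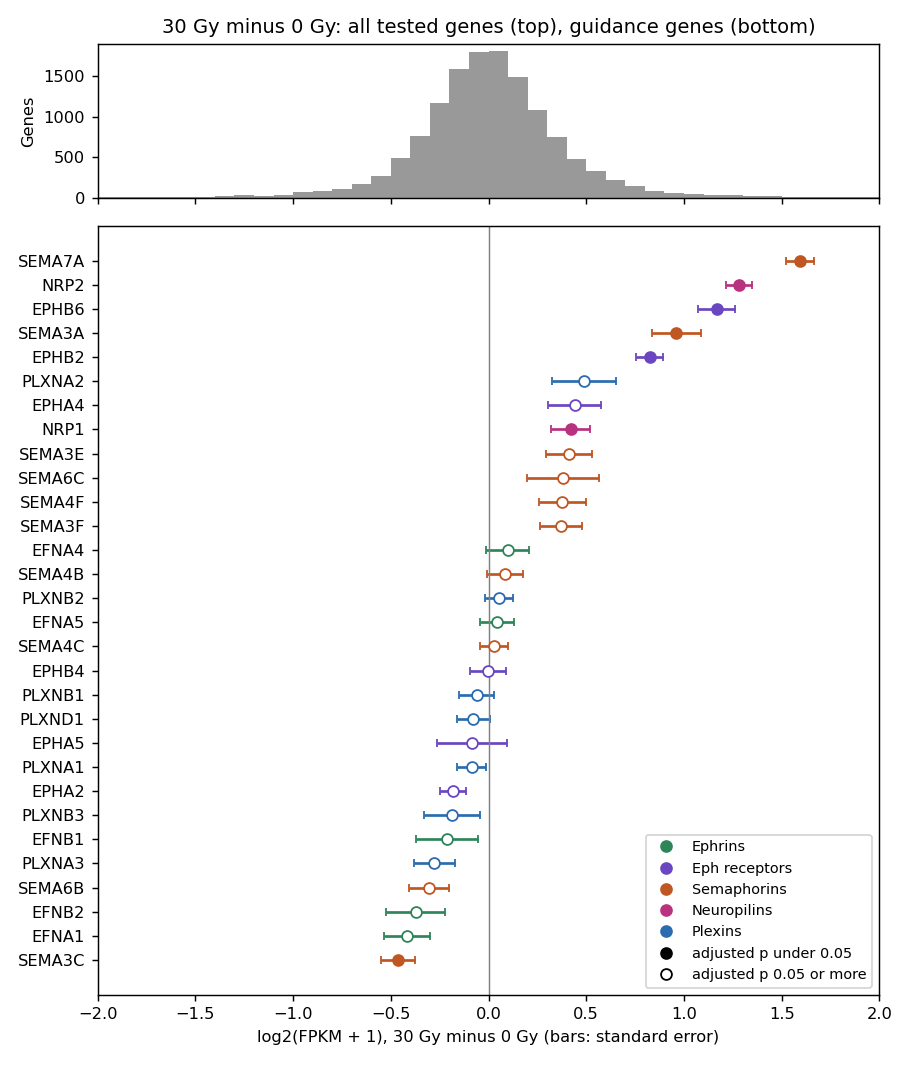
Change in log2(FPKM + 1), 30 Gy minus 0 Gy. The upper panel counts all tested genes in steps of 0.1 (33 genes beyond 2 in either direction are not drawn), and the lower panel gives each of the 30 tested guidance genes with its standard error, coloured by family and filled where the adjusted p is under 0.05. SEMA7A, NRP2, EPHB6, SEMA3A and EPHB2 stand between 0.82 and 1.59, the other members between -0.46 and 0.49.

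The remaining 23 members were below the level for testing, 15 of them under 0.5 FPKM in every library, and EPHA8, SEMA3G and SEMA6D had no library with more than 3 reads. The following were picked out after their values were seen. SEMA4A, a class 4 semaphorin known from immune cells, had 13 and 16 reads at 0 Gy and 1 and 2 reads at 30 Gy. PLXNA4, a class A plexin, had 0 reads in both 0 Gy libraries and 18 and 20 reads at 30 Gy. SEMA5A had 23 and 26 reads at 0 Gy and 59 and 54 at 30 Gy, and EPHB1 had 2 and 8 reads and then 19 and 15. By FPKM the groups did not overlap in 15 of the 23, of which 8 were higher at 30 Gy and 7 lower. Among all tested genes that share was 65.2%, and it was not computed over all untested genes. The count is therefore no result about these members. The other genes at a ratio of means of 2 or more were EFNA2 (0 and 2 reads, then 6 and 7), EFNB3 (20 and 21, then 33 and 44), EPHA3 (38 and 25, then 48 and 84) and, in the other direction, EPHB3 (19 and 24, then 6 and 13). With no filter on low values, none of these 8 passed in limma (adjusted p = 0.189 for SEMA4A, 0.247 for PLXNA4, 0.204 for SEMA5A, 0.271 for EPHB1 and 0.132 to 0.382 for the other 4). At these levels the added 1 in log2(FPKM + 1) compresses a change, to 0.10 for PLXNA4 and -0.15 for SEMA4A. That fit could hardly pass such genes and cannot decide whether they changed. Voom was not run on them.

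The signalling partners of these receptors, from lists fixed by pathway, were called in both directions. Of 27 partners of Eph receptors and ephrins, 23 were tested, 2 rose and 4 fell, with a median log2 change of -0.02. These calls are 26.1% of the 23, beside 19.8% of all tested genes (10.8% higher and 9.06% lower). The difference was not tested. CHN1, a chimaerin that switches off Rac downstream of Eph receptors, rose from 4.45 ± 0.207 to 8.26 ± 0.319 FPKM (SD, n = 2 each), and RASA1, a Ras-inactivating protein, rose by 0.42 on the log2 scale. The adaptors SHC1 and NCK1 fell by 0.61 and 0.39, the lipid phosphatase INPPL1 by 0.43 and the tyrosine phosphatase PTPN11 by 0.31. The summed FPKM of the list was 397 to 412 at 0 Gy and 350 to 351 at 30 Gy.

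Of 28 plexin and neuropilin partners, 21 were tested, 3 rose and 4 fell (median 0.0051). These calls are 33.3% of the 21, beside 19.8% of all tested genes (10.8% higher and 9.06% lower). That difference was not tested either. The R-Ras family GTPases, which plexins switch off, went both ways. RRAS rose from 49.6 ± 2.51 to 95.1 ± 8.07 FPKM (SD, n = 2 each), while RRAS2 fell from 36.2 ± 2.97 to 16.5 ± 2.21. MRAS and RAP1A fell by 0.40 and 0.36 on the log2 scale. DPYSL3, of the collapsin response mediator family that relays semaphorin signals to the cytoskeleton, rose from 20.3 ± 0.389 to 40.7 ± 0.364 FPKM, and MICAL1, which oxidises actin downstream of plexins, rose by 0.55. ARHGEF11, a guanine nucleotide exchange factor that binds B-class plexins, fell by 0.49 and completes the count.

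Among 25 genes of the netrin, slit and repulsive guidance families 7 were tested, NTN4 and SRGAP2 rose by 0.41 and 0.33 and none fell (median 0.17). The calls are 28.6% of the 7, beside 10.8% of all tested genes called higher, and 7 genes are too few to set the list apart. At an unadjusted p under 0.05 the number that fell in this last list was 0, and voom on the recovered reads called 0 lower. With 7 genes tested and 9.06% of all tested genes called lower, the lack of a lower call is near that background. The 3 lists together had 15 calls in 51 tested genes (29.4%), above the 19.8% of all tested genes; the lists were chosen with earlier results of these data known, and no test was made of that difference.

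The calls on SEMA7A, NRP2, EPHB6 and EPHB2 held in each of the 10 other settings that kept all 4 libraries, and without either 30 Gy library. Without the first or the second 0 Gy library, which leaves a lone library in that group, no gene in the whole table passed (3422 and 3460 genes at an unadjusted p under 0.05), and the adjusted p of these 4 genes was 0.0673 to 0.0852. These 4 genes did pass there when the filter was applied again to the 3 libraries left (adjusted p by limma of 0.0131 to 0.0330, with 592 and 623 genes called in all), a setting added after seeing the data. In that setting SEMA3C passed without the first 30 Gy library (adjusted p by limma = 0.0377) and missed the threshold without any of the other three (0.0697 to 0.118). SEMA3A passed there without either 30 Gy library and missed it without either 0 Gy library (0.0621 and 0.0532), and NRP1 missed it without any 1 library (0.0533 to 0.134). SEMA3A also lost its call with no filter on low values (adjusted p = 0.0734). SEMA3C lost it in that setting (0.0976), with the replicate block (0.052) and without any 1 of the 4 libraries (0.0528 to 0.160). NRP1 lost it without any 1 library (0.0953 to 0.156), with no filter (0.153), on rescaling to equal sums (0.0712), without the trend (0.0721) and with the replicate block (0.0679). All 7 kept their direction throughout.

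**Figure D4:**
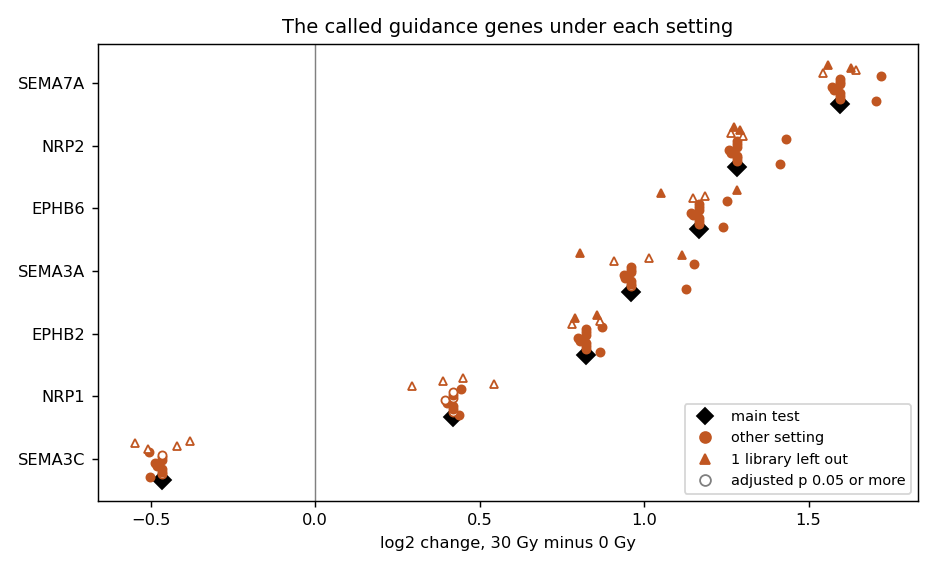
log2 change of the 7 called guidance genes (30 Gy minus 0 Gy) in the main test (black diamonds), in the other planned settings (circles) and with 1 library left out (triangles); open symbols have an adjusted p of 0.05 or more. SEMA7A, NRP2, EPHB6 and EPHB2 are filled in all circles, NRP1 and SEMA3C have open triangles throughout, and no symbol crosses 0.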

How the data were processed

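The authors deposited 1 table of FPKM values per gene, with gene positions and lengths. The submitters' processing notes name the build hg38; how reads were aligned and counted, and on which annotation release, is not given in the sources used here. Each of the 53 members matched GENCODE release 29 by identifier and position. In each library, FPKM times gene length was a whole multiple of 1 step for 100% of the values above 0 (tolerance 0.001), which gave whole reads per gene. These serve for depth, for floors of 3 reads and for 1 alternative.

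Genes at 1 FPKM or more in 2 or more libraries entered limma 3.58.1 in R 4.3.3. Its two-sided moderated test (lmFit, eBayes with trend) was run on log2(FPKM + 1) without covariates, with Benjamini-Hochberg adjustment at 0.05 over all 13379 genes. The pseudocount of 1 understates the change of low genes. Residual degrees of freedom were 2 and prior degrees 2.98, and the script was tested on simulated reads. Values are mean FPKM with SD.

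Members shown library by library are those that passed, the 2 highest in each family, and those at a ratio of 1.5 or more that did not pass; others are named to complete a class or where stated. In partner lists up to 6 called genes are named, and 1 further list is not reported here. The members and lists were chosen with earlier results of these data known. Protein sequences were not used here. Promoter windows come from RefSeq (GRCh38.p14), matched by symbol.

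Alternatives were a pseudocount of 0.1, no filter, a filter at FPKM 5, protein-coding genes alone, median centring, equal sums, eBayes without trend or robust, a replicate block, voom on the recovered reads with trimmed-mean scaling, and each library left out with the tested genes held fixed.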

Additional observations from a re-analysis of the deposited data

How the results depend on the processing

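Over all tested genes, 2654 calls became 604 with no filter and 4186 with voom, and 0 to 898 with 1 library left out. Where the filter was applied again to the 3 libraries left, an alternative added after seeing the data, 592 genes (first replicate left out) and 623 (second) were called when a 0 Gy library was missing and 1317 and 1411, in the same order, when a 30 Gy library was, with 4 to 5 members higher and 0 to 1 lower. The 6 members called higher became 11 with protein-coding genes alone and 11 with voom, and 0 to 5 with 1 library left out, 0 when it was either 0 Gy library. The single member called lower became 0 with no filter, 2 at a filter of FPKM 5, 4 with protein-coding genes alone, 2 with equal sums, 5 with voom, and 0 with any 1 library left out. In the 3 partner lists, 7 genes called higher became 3 with no filter, 12 with protein-coding genes alone, 14 with voom, and 0 to 4 with 1 library left out (3 to 5 with the filter applied again); 8 called lower became 1 with no filter and 0 to 3 with 1 library left out (2 to 4). The members' median log2 change of 0.05 ranged from -0.016 to 0.11 with 1 library left out (-0.018 to 0.098 with the filter applied again), so its sign is not fixed. No named member that passed in any setting changed direction in it. Replicate numbers do not pair the libraries by any label, and the deviations of same-numbered libraries correlated at -0.026. With the replicate block 1926 genes were called, and 6 members higher and 0 lower; SEMA3C and NRP1 missed the threshold and SEMA4F passed. The cause of these shifts was not tested. Each setting differs from the main fit in the libraries, the set of genes, the scaling, the pseudocount or the model. The edgeR alternative planned on recovered reads was not run, and voom was the only count-based alternative. With 2 libraries per group, small changes are beyond these data.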
